A study of Homo sapiens with 26 samples.

Results

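LoVo cells, an established human colorectal cancer line, carrying the PIK3CA mutation E545K were kept in conditioned medium of senescent cells and compared with the same line in DMSO, the solvent control. The comparison rests on 4 of the 26 RNA-seq libraries of the series, 2 in conditioned medium and 2 in DMSO, and covers all 18165 genes listed, of which 12607 (69.4%) had at least 1 FPKM in at least 2 of 18 libraries and were tested. FPKM counts fragments per kilobase of transcript, scaled to the mapped fragments of the library. The mutation had been put into wild-type LoVo with a lentiviral vector, so the line is a derivative of 1 cell line. For reference, wild-type LoVo and LoVo with the PIK3CA mutation H1047R were used in DMSO and in conditioned medium (2 libraries each), together with E545K cells in 0.5 µM palbociclib, an inhibitor of the cell cycle kinases CDK4 and CDK6 (2 libraries). The labels give 72 hours for palbociclib and DMSO and collection of control cells at 48 hours, without saying which libraries the latter covers. All cells grew in medium with 10% fetal bovine serum. The hours in conditioned medium and the cells that had conditioned it are not given in the sources used here. E545K clones 2 and 5 are named for the series, clone 2 for the palbociclib experiment, and the clone of the conditioned-medium libraries is not stated. The effects of the medium, of the clone and of the culture therefore cannot be told apart. Nothing says that the 2 libraries of a group came from separate cultures, so p-values measure the spread between these libraries, which may be technical.

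Cells that enter senescence stop dividing but stay active and release cytokines, chemokines, proteases and growth factors, together called the senescence-associated secretory phenotype (SASP). Medium conditioned by such cells carries these factors to cells that receive it, where chemokine and cytokine receptors, NF-kB and the JAK-STAT pathway can respond. Type I interferon acts through a complex that includes STAT2 and IRF9 and binds a short element in the promoters of antiviral genes. PIK3CA encodes the catalytic subunit p110-alpha of a phosphoinositide 3-kinase that signals from growth factor receptors to AKT, and E545K is an activating mutation in its helical domain.

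FPKM sums were 446862 to 478199, 11777 to 11898 genes had at least 1 FPKM, and the correlation between replicates over all genes tested was 0.9964 in DMSO and 0.9972 in conditioned medium. Ribosomal protein genes made up 18.6% and 20.0% of the FPKM sum in DMSO against 15.9% and 16.1% in conditioned medium, and the part of this shift in the other results was not tested. Of 12 markers of colorectal epithelium, 10 had at least 1 FPKM in both DMSO libraries and 11 in both conditioned-medium libraries. CDX1 was low, at 0.26 and 0.13, then 0.76 and 1.01 FPKM. Summed levels were 8166 to 8706 FPKM in DMSO and 10241 to 10311 in conditioned medium, most of it from the keratins KRT8 and KRT18. Markers of other cells were low: the 9 fibroblast markers listed summed to 13.1 to 14.9 and 9.16 to 9.31 FPKM, and the 7 endothelial markers to 6.34 to 7.68 and 4.25 to 4.52. The 8 immune markers listed summed to 51.7 to 51.8 and 38.5 to 39.9 FPKM, nearly all of it the lysosomal protein CD68. Bulk RNA cannot tell fewer cells of a kind from less RNA per cell.

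In conditioned medium, E545K cells had more RNA of interferon-stimulated genes, neutrophil- and lymphocyte-attracting chemokines, class II antigen presentation genes and ribosome assembly genes, and less RNA of p53 targets, CDK inhibitors, antioxidant genes, immediate early genes and vimentin. By limma on log2(FPKM + 1), 4090 genes were higher (32.4% of the 12607 tested) and 3133 lower (24.9%) at a Benjamini-Hochberg adjusted p below 0.05, so 57.3% of all genes passed. Log2 changes below are on this scale, which understates the change of genes near or under 1 FPKM. Counts for gene groups are to be read against those shares, and the median change over all genes was 0.05. Centring each library on its median moved that median to -0.07 and the share of higher genes among those called from 56.6% to 42.9%. The plot of change against level marks the interferon, chemokine, p53 and antioxidant genes, each of which has members on both sides of 0.

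**Figure D1:**
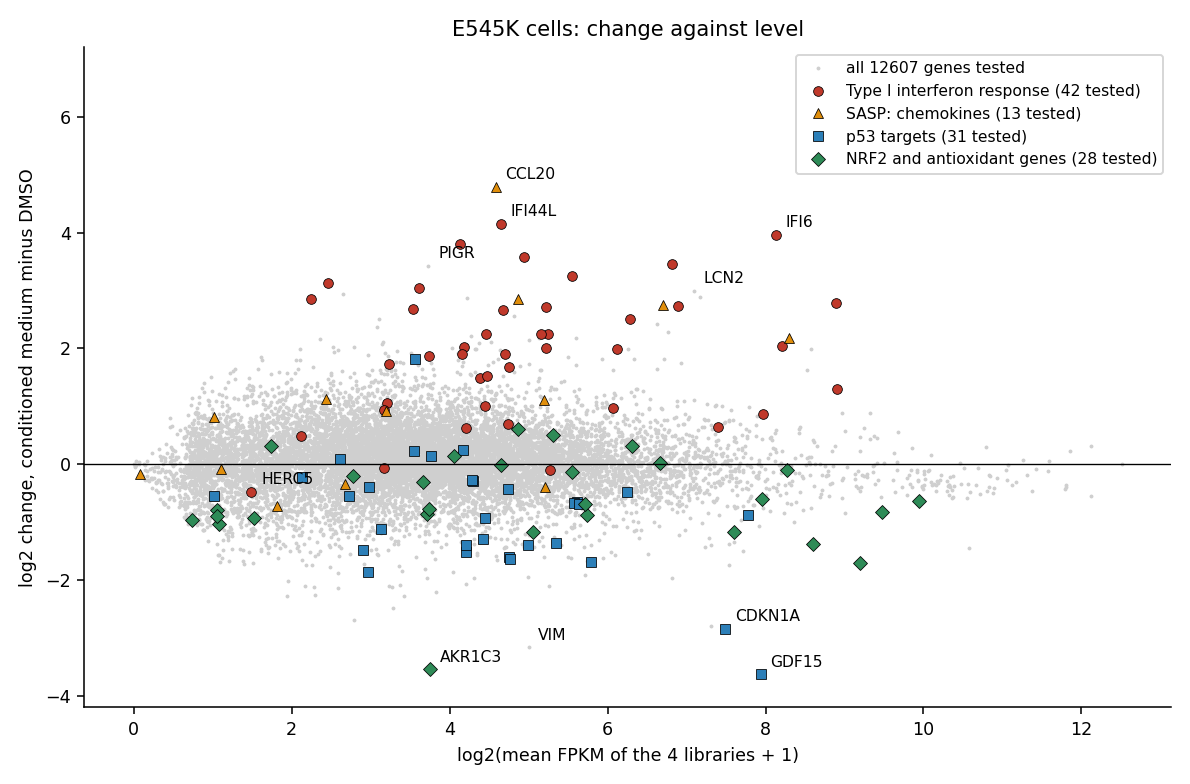
Log2 change (conditioned medium minus DMSO, from the limma fit on log2(FPKM + 1)) against log2 of the mean FPKM of the 4 E545K libraries plus 1, 1 point per gene tested, with members of 4 gene groups marked. CCL20 lies highest at 4.80 and GDF15 lowest among the marked genes at -3.63; 39 of 42 interferon genes passed as higher.

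Promoters with a match to the elements through which interferon and NF-kB are known to act are shown here, for genes among those that rose most. Each is the 250 bases before a start of the gene from RefSeq (GRCh38.p14), 5′ to 3′ on the gene's strand. For a gene with several starts, the first whose stretch holds a match is shown. The stretches of MX1 and RSAD2 lie inside the full spans of these genes, which begin at 41420558 and 6865885. Capitals mark the letters GAAA, any 2 bases and GAAA again or, on the opposite strand, TTTC, any 2 bases and TTTC, which is a core of the interferon-stimulated response element. Of the 10 genes with the largest rise in RNA and at least 5 FPKM on average in either group, 8 were interferon genes, and the 5 of these that hold a match are printed. XAF1 has no match, and OAS2 and MX2 are not in the table.

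IFI44L, chr1:78620198-78620447, plus strand: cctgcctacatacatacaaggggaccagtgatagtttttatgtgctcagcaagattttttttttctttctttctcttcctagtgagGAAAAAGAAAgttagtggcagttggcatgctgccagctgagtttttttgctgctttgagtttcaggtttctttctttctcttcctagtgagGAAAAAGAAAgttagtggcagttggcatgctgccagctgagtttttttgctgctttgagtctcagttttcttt

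IFI6, chr1:27672193-27672442, minus strand: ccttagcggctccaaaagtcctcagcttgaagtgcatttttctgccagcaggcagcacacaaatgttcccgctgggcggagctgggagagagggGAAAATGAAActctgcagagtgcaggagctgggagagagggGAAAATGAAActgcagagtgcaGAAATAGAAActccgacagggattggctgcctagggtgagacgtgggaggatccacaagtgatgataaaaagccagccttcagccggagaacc

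SAMD9, chr7:93117980-93118229, minus strand: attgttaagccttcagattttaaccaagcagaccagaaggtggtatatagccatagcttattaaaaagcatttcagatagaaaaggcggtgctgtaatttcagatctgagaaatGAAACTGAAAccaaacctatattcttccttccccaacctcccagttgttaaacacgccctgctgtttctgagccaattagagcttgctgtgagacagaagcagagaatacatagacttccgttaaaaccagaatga

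MX1, chr21:41431800-41432049, plus strand: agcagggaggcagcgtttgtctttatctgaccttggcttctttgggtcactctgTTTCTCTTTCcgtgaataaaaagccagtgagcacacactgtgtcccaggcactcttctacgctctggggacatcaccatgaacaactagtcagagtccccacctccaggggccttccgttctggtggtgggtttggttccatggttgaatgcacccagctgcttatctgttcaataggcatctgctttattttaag

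RSAD2, chr2:6877527-6877776, plus strand: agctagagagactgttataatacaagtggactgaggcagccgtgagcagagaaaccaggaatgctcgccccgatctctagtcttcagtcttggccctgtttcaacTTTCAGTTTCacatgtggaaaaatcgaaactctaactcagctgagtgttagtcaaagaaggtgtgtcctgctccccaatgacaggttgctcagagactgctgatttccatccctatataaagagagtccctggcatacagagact

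IFI6 holds 3 matches, 156, 115 and 93 bases before its start, and IFI44L holds 2 in a repeated stretch, 164 and 73 bases before its start. SAMD9, MX1 and RSAD2 hold 1 each, 136, 196 and 145 bases before the start used. Among the 39 interferon genes that rose, 30 had a promoter entry, 19 of them with a match in at least 1 promoter and 11 without. The shares that follow count promoters and not genes, and a gene can have several. Over the 43 promoters of the tested interferon genes, 24 held the element (55.8%), against 3.02% of all 35116 promoters of this length and 2.42% of those of genes tested. This share describes the members' sequence and is no test of binding.

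For the 4 chemokines with the largest rise, all of which hold a match, capitals mark GGG, any 2 bases and TTTCC or, on the opposite strand, GGAAA, any 2 bases and CCC, which is a core of the NF-kB site.

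CCL20, chr2:227813592-227813841, plus strand: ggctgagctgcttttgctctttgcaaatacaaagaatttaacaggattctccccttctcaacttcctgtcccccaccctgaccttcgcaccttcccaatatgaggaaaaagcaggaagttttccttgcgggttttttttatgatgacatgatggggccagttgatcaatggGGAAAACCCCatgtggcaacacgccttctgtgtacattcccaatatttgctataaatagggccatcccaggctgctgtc

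CXCL2, chr4:74099196-74099445, minus strand: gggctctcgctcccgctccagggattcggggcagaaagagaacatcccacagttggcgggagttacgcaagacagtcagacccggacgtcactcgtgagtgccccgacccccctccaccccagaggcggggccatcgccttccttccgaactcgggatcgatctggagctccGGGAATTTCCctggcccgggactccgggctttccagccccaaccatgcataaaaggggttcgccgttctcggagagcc

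CXCL3, chr4:74038690-74038939, minus strand: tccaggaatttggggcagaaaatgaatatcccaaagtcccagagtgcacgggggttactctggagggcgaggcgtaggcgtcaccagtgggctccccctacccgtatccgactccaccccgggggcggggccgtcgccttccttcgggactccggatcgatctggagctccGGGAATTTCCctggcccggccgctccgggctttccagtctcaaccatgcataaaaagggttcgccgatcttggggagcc

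CXCL1, chr4:73869143-73869392, plus strand: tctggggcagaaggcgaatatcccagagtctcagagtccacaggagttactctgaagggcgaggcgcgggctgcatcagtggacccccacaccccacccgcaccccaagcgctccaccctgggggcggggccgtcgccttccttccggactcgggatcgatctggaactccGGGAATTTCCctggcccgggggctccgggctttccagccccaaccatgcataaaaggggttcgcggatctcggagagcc

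The match lay 78 or 79 bases before the start in all 4 promoters. CXCL1, CXCL2 and CXCL3 are neighbouring copies of 1 ancestral gene on chromosome 4 and share the bases on both sides of it, so they are not independent examples. Of the 8 chemokines that rose, 5 held a match in at least 1 promoter and 3 did not. Over the 11 promoters of tested chemokines, 5 held it (45.5%), against 1.73% of all promoters.

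PIK3CA (chromosome 3, 179148126 to 179240093), the gene mutated in this line, was measured at 8.20 and 7.37 FPKM in DMSO and at 15.2 and 16.3 in conditioned medium. Both conditioned-medium libraries lay above both DMSO libraries, a log2 change of 0.93 (SE 0.11, adjusted p = 7.49e-06). In wild-type cells it was at 5.38 and 5.42 in DMSO and 6.20 and 5.93 in conditioned medium, and in H1047R cells at 6.36 and 7.19, then 6.79 and 5.75. The response of E545K exceeded that of H1047R by 1.03 (SE 0.16, adjusted p = 0.00024). E545K cells in palbociclib had 10.4 and 9.92 FPKM, between the other E545K groups. FPKM per gene does not separate the endogenous copies from a vector's copy.

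Of 42 interferon-stimulated genes tested, 39 rose, 1 fell and 2 did not pass, with a median log2 change of 2.00 against 0.05 over all genes. IFI44L (chromosome 1, 78620448 to 78646145), which restrains viral replication, was at 1.94 and 1.46 FPKM in DMSO and 47.9 and 45.3 in conditioned medium. The groups were far apart, with a log2 change of 4.14 (SE 0.10, adjusted p = 8.62e-13), a 27.4-fold ratio of means. IFI6, a mitochondrial and endoplasmic reticulum protein induced by interferon, went from 32.9 and 32.7 to 553 and 496 FPKM, a log2 change of 3.96 (SE 0.12, adjusted p = 4.71e-12). MX1, a GTPase that blocks viruses, went from 17.9 and 17.9 to 211 and 201 FPKM, a log2 change of 3.45 (SE 0.07, adjusted p = 1.05e-13). All were among the largest rises, a ranking that admitted only genes whose groups do not overlap, so the lack of overlap is no result.

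The oligoadenylate synthetases, which sense double-stranded RNA, rose in OAS1 (log2 change 2.51), OAS2 (3.58) and OAS3 (2.73). OAS2 was at 4.07 and 3.44 FPKM in DMSO and at 54.0 and 57.4 in conditioned medium. SAMD9 and SAMD9L, paired restriction factors on chromosome 7, rose by 3.80 and 2.85. RSAD2, the antiviral enzyme viperin, rose from 1.66 and 1.59 to 20.9 and 20.6 FPKM, and MX2 from 0.21 and 0.05 to 8.5 and 9.21. XAF1, which promotes cell death, rose by 3.25 (SE 0.23). IFI27 rose from 112 and 126 to 831 and 819 FPKM, the highest level in the group.

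The signalling proteins of the pathway rose as well. IRF9 went from 6.39 and 6.96 to 33.2 and 37.8 FPKM (log2 change 2.25, SE 0.09, adjusted p = 8.3e-11) and STAT2 from 14.4 and 12.8 to 21.7 and 21.2 (0.63, SE 0.13, adjusted p = 0.000595). Both belong to the complex that binds the element printed above. IRF7, which drives interferon production, rose by 1.49, and the RNA sensors IFIH1 and DDX58 by 1.90 and 1.53. ISG15, a ubiquitin-like modifier, rose less than most, from 166 and 190 to 342 and 304 FPKM (log2 change 0.86, adjusted p = 0.000214). HERC5, the ligase that attaches ISG15, was the member that fell, from 2.14 and 2.40 to 1.43 and 1.26 FPKM (log2 change -0.48). ISG20 (-0.06) and OASL (-0.09) did not pass. Several of these genes have close copies (IFIT, IFITM and OAS families), so the split of fragments between copies is uncertain.

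Antigen presentation genes rose in 21 of 26 and fell in 1, with a median of 0.77. The largest rises were in class II genes, which display peptides to helper T cells. CD74, the invariant chain, was at 6.25 and 8.24 FPKM in DMSO and at 47.8 and 46.5 in conditioned medium (log2 change 2.56, SE 0.14, adjusted p = 2.95e-09). HLA-DRA went from 10.2 and 11.6 to 50.8 and 51.4 FPKM (2.14), and CIITA, the class II transactivator, from 1.14 and 0.98 to 2.54 and 2.54 (0.78). In class I the changes were smaller: B2M, the shared light chain, rose by 0.77, the peptide transporter genes TAP1 and TAP2 by 0.46 and 1.14, the immunoproteasome genes PSMB8 and PSMB9 by 1.07 and 1.14, and NLRC5, the class I transactivator, by 1.08. HLA-E, of class I, fell by 0.42 on the log2 scale. Sequence variation among HLA genes makes their counting uncertain.

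Chemokines rose in 8 of 13 tested and fell in 2. CCL20 (chromosome 2, 227813842 to 227817556), which attracts CCR6-bearing lymphocytes and dendritic cells, was at 0.78 and 0.56 FPKM in DMSO and at 43.3 and 47.4 in conditioned medium. This was the largest rise on the log2(FPKM + 1) scale (4.80, SE 0.25, adjusted p = 2.21e-09). CXCL2, a ligand of the neutrophil receptor CXCR2, went from 5.87 and 6.35 to 48.6 and 52.1 FPKM (2.85), CXCL3 from 26.1 and 25.6 to 165 and 195 (2.75), and CXCL1 from 118 and 107 to 497 and 529 (2.18). CXCL8 and CXCL10, the second an interferon target, rose by 1.11 and 1.12. CXCL16 fell by 0.40 and CCL26 fell by 0.73, the latter call being lost without DMSO replicate 1 (-0.67) or conditioned-medium replicate 1 (-0.52).

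Of 31 genes of the NF-kB pathway, which includes 5 of these chemokines, 19 rose and 5 fell, with a median of 0.44. NFKB1, the p105 precursor of the p50 subunit, was at 10.6 FPKM in both DMSO libraries and at 32.9 and 33.0 in conditioned medium (log2 change 1.55, SE 0.08, adjusted p = 1.77e-09). NFKBIZ, a nuclear cofactor, rose by 1.74, BIRC3, a ubiquitin ligase of the pathway, by 1.70, and the feedback inhibitors TNFAIP3 and NFKBIA by 0.87 and 0.73. RELA, the p65 subunit, fell by 0.40 (SE 0.09), and TNF by 0.57 (SE 0.13), from 3.51 and 4.04 to 1.81 and 2.67 FPKM.

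SASP cytokines and growth factors went mostly the other way: 4 of 30 rose and 20 fell, with a median of -0.55. GDF15 (chromosome 19, 18386158 to 18389176), a stress cytokine and p53 target, was at 422 and 483 FPKM in DMSO and at 34.8 and 36.3 in conditioned medium. This was the largest fall on the log2(FPKM + 1) scale (-3.63, SE 0.13, adjusted p = 4.47e-11). The interleukins IL1A and IL1B fell by 1.04 and 1.08, from 7.25 and 7.41 to 2.81 and 3.28 FPKM for IL1A and from 29.0 and 28.6 to 12.4 and 13.8 for IL1B. PDGFB, a mitogen of mesenchymal cells, fell by 1.23, and IGFBP6, which binds insulin-like growth factor 2, fell by 1.21. CSF1, the macrophage growth factor, rose from 5.12 and 4.24 to 13.5 and 14.0 FPKM (1.38, adjusted p = 9.03e-08), and VEGFA rose by 0.34.

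Proteases and their inhibitors fell in 9 of 17 and rose in 3. TIMP3, a metalloprotease inhibitor, went from 2.92 and 3.05 to 0.19 and 0.30 FPKM (-1.68), and PLAUR, the urokinase receptor, from 49.2 and 50.2 to 21.0 and 19.5 (-1.25). PLAU, urokinase itself, fell by 0.77. The collagenase MMP1 rose from 0.29 and 0.26 to 1.83 and 2.09 FPKM (1.21), and matrilysin, MMP7, from 0.47 and 0.31 to 1.84 and 2.03 (1.08), both remaining low. Of the metalloprotease inhibitors, TIMP2 also fell (-0.62) and TIMP1 did not pass (-0.19).

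p53 targets fell in 25 of 31 and rose in 2, with a median of -0.69. CDKN1A (chromosome 6, 36676463 to 36687332), the p21 inhibitor of cyclin-dependent kinases, was at 308 and 319 FPKM in DMSO and at 40.3 and 45.6 in conditioned medium (-2.84, SE 0.11, adjusted p = 9.52e-11). BBC3 (PUMA), which triggers apoptosis, went from 82.7 and 84.3 to 24.8 and 25.3 FPKM (-1.70). FDXR, a mitochondrial reductase, fell by 1.64 and TP53INP1, which modulates p53 in stress, fell by 1.86. MDM2, the ligase that degrades p53, fell from 65.0 and 53.3 to 36.9 and 37.2 FPKM (-0.65, SE 0.16, adjusted p = 0.00248). The clear exception was TP53I3, a quinone oxidoreductase, which rose from 4.80 and 3.70 to 18.1 and 16.7 FPKM (1.82, adjusted p = 3.95e-08). The other member counted as higher, TNFRSF10A (0.24), was not called without DMSO replicate 1 or without conditioned-medium replicate 1, which left 1 higher member.

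Of 8 CDK inhibitor genes, 7 fell and none rose. CDKN1C (p57) went from 15.8 and 15.7 to 2.75 and 3.14 FPKM (-2.09, SE 0.13, adjusted p = 1.08e-08), CDKN2D (p19) from 14.6 and 14.9 to 3.96 and 3.43 (-1.75), and CDKN1B (p27) from 57.5 and 55.5 to 36.4 and 38.0 (-0.59). CDKN2A, often used as a mark of senescence, fell from 14.6 and 14.7 to 9.65 and 8.68 FPKM (-0.62, adjusted p = 9.87e-05). CDKN3, a phosphatase of CDKs, did not pass (0.09). In the same libraries 13 of 19 CDK, cyclin and RB genes rose and 2 fell. CDK4 rose from 70.0 and 79.0 to 153 and 165 FPKM (1.09, adjusted p = 1.5e-06), and cyclin D1, CCND1, rose by 0.58. RB1, the brake that CDK4 inactivates, rose by 0.79, and CDK2 fell by 0.33.

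Replication and mitosis genes did not move as 1 block. Of 47 replication genes 24 rose and 6 fell (3 fell without any 1 of the 4 libraries), with a median of 0.24. The helicase subunit MCM3 rose from 38.6 and 39.7 to 93.4 and 93.9 FPKM (1.24, adjusted p = 7.82e-09), while the licensing factor CDT1 fell by 1.05. Of 42 mitosis genes 9 rose and 18 fell, with a median of -0.18. Without DMSO replicate 2, 5 rose, and without conditioned-medium replicate 2, 11 fell. HMMR, a spindle protein, rose from 30.6 and 29.2 to 56.7 and 57.2 FPKM (0.91), and securin, PTTG1, fell from 233 and 266 to 155 and 142 (-0.74). CDK1 fell from 107 and 99.1 to 72.0 and 64.4 FPKM (-0.59, adjusted p = 1.98e-05). The proliferation marker MKI67 (log2 change 0.07, adjusted p = 0.795) and TOP2A (-0.30, adjusted p = 0.107) did not pass.

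Ribosome assembly genes rose in 27 of 31 with none lower, and a median of 0.75. POLR1A, the large subunit of RNA polymerase I, went from 3.99 and 3.94 to 12.1 and 11.9 FPKM (1.39, SE 0.08, adjusted p = 6.22e-09). The nucleolar proteins NOP56 and NCL rose by 1.14 and 0.99, and MYC, which drives these genes, from 40.1 and 41.1 to 80.5 and 87.9 FPKM (1.03, adjusted p = 9.84e-08).

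The PI3K, AKT and mTOR components other than PIK3CA changed in both directions, with 12 of 29 higher, PIK3CA among them, and 5 lower, and a median of 0.11. INPP5D, the phosphatase SHIP1, went from 5.20 and 5.17 to 0.55 and 0.50 FPKM (-2.02, SE 0.11, adjusted p = 3.31e-09). RPTOR of the mTOR complex 1 rose by 0.78. Insulin receptor, IRS and FOXO target genes fell in 19 of 31 and rose in 5. TXNIP, a brake on glucose uptake, went from 217 and 221 to 83.6 and 97.3 FPKM (-1.27), BCL6, a repressor, from 5.12 and 5.21 to 1.29 and 1.35 (-1.41), and IRS1, the adaptor of the insulin receptor, from 8.81 and 8.29 to 5.66 and 5.47 (-0.54). INSR (-0.16) and IRS2 (-0.13) did not pass.

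ERK pathway output genes fell in 16 of 24 and rose in 3, and immediate early genes fell in 17 of 24 and rose in 2 (1 without DMSO replicate 2 or conditioned-medium replicate 2), with medians of -0.53 and -0.47. The ERK phosphatase DUSP5 went from 176 and 181 to 44.2 and 46.0 FPKM (-1.96, SE 0.10, adjusted p = 1.77e-09), DUSP4 fell by 1.24 and the transcription factor ETV4 fell by 1.08. NR4A1, an orphan nuclear receptor, went from 66.6 and 67.8 to 22.0 and 20.9 FPKM (-1.61) and ATF3, a stress-induced factor, from 35.1 and 38.3 to 14.5 and 14.4 (-1.29). JUN fell by 0.85 and FOS by 0.64. MYC and CCND1 are also ERK targets and were 2 of the 3 that rose. In the EGFR family, with 2 of 15 higher and 4 lower (8 lower after median-centring or quantile normalization), the ligand betacellulin, BTC, rose from 2.5 and 2.15 to 11.3 and 11.3 FPKM (1.89, adjusted p = 1.33e-08). Amphiregulin, AREG, fell from 192 and 199 to 89.6 and 104 (-1.01, adjusted p = 1e-06), and LRIG1, which promotes receptor degradation, fell by 1.02. EGFR itself did not pass (-0.16, adjusted p = 0.398).

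Antioxidant genes under NRF2 fell in 18 of 28 and rose in 3, with a median of -0.73. AKR1C3 (chromosome 10, 5048781 to 5107686), an aldo-keto reductase, was at 23.8 and 23.7 FPKM in DMSO and at 1.06 and 1.18 in conditioned medium (-3.54, SE 0.20, adjusted p = 3.31e-09). It shares much of its sequence with AKR1C1 (-0.97) and AKR1C2 (-0.90), so the split between them is uncertain. The ferritin light chain FTL went from 861 and 939 to 272 and 276 FPKM (-1.71) and thioredoxin reductase TXNRD1 from 266 and 269 to 117 and 119 (-1.17). NFE2L2, which encodes NRF2, rose by 0.50, and HMOX1 did not pass (-0.20). HSPA5, the main chaperone of the endoplasmic reticulum, fell from 310 and 342 to 161 and 149 FPKM (-1.07, adjusted p = 1.11e-08), and ATF5, a factor of the amino acid response, rose from 2.62 and 3.34 to 11.7 and 10.8 (1.63, adjusted p = 5.73e-08).

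Sterol and fatty acid synthesis genes rose in 14 of 34 and fell in 7. The desaturase SCD rose from 102 and 96.4 to 201 and 209 FPKM (1.04). INSIG1, which retains the sterol sensor in the endoplasmic reticulum, fell by 0.66.

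Single genes outside the groups described so far changed as strongly. Vimentin, VIM (chromosome 10, 17228241 to 17237593), the intermediate filament of mesenchymal cells, was at 57.9 and 55.3 FPKM in DMSO and at 5.19 and 5.66 in conditioned medium (-3.16, SE 0.08, adjusted p = 1.15e-12). Fibronectin, FN1, went from 3.82 and 3.81 to 0.70 and 0.63 (-1.53) and L1CAM, an adhesion molecule, from 3.52 and 3.19 to 0.33 and 0.32 (-1.72). The 25 transition genes tested as a list were split, with 8 higher and 7 lower, and the epithelial genes CDH1 (0.09) and EPCAM (0.13) did not pass. CD44, a hyaluronan receptor, fell from 20.1 and 21.1 to 6.86 and 7.15 FPKM (-1.43), whereas the stem cell gene LGR5 rose from 14.7 and 12.9 to 52.0 and 44.8 (1.73, adjusted p = 3.57e-07). The enterocyte factor HNF4A rose by 1.00 and the intestinal factor CDX2 by 0.73. Other genes of enterocyte and goblet differentiation were split. HNF4G, KLF4 and VIL1 also passed as higher. CEACAM5 fell from 23.6 and 18.0 to 14.5 and 16.1 FPKM, and MUC2 and CEACAM1 also passed as lower.

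PIGR, which carries IgA across epithelia, rose from 1.26 and 1.27 to 21.5 and 25.03 FPKM (3.42, SE 0.09, adjusted p = 1.94e-12). LCN2, an iron-binding defence protein, rose from 27.5 and 31.6 to 235 and 249 (2.99), and REG4, a secreted lectin of the gut, from 3.47 and 3.48 to 31.4 and 32.5 (2.88). Both LCN2 and REG4 belong to the list of 15 JAK-STAT3 and IL-6 family genes, which was split, with 6 higher and 5 lower. PRR15L rose by 2.94. The remaining genes among the 12 largest falls with a mean of at least 5 FPKM in either group were ALPG (-2.79), a placental-type alkaline phosphatase with a near-identical copy, REEP2 (-2.69), CRIP2 (-2.48), SCNN1A (-2.28), FXYD6 (-2.27), CALB2 (-2.25), KLF2 (-2.21) and TUBB4A (-2.14). This ranking admitted only genes whose groups do not overlap, so the lack of overlap in these 8 genes is no result.

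The response was then compared with those of the other lines, each against its own DMSO libraries. In wild-type cells 6537 genes were higher (51.9%) and 2346 lower (18.6%), together 70.5%, with a median of 0.29 over all genes (3791 and 4521 after median-centring), so wild-type changes, and differences from wild type, are given relative to the median of all genes, while their adjusted p tests the value before this shift. In H1047R cells 1091 were higher (8.65%) and 753 lower (5.97%). The test of the difference in response found 1265 genes (10%) with a larger value in E545K than in wild type and 4672 (37.1%) with a smaller one. After median-centring these were 2354 (18.7%) and 2610 (20.7%), and after quantile normalization 2450 (19.4%) and 2852 (22.6%). Against H1047R there were 2367 (18.8%) with a larger value and 1906 (15.1%) with a smaller one, and 1702 and 2615 after median-centring. The H1047R DMSO libraries were noisier, with a residual SD of 0.17 against 0.095 to 0.116 in the other groups used, but the fit pools the spread of all groups, so its standard errors do not reflect this. The pooled spread also includes H1047R cells in palbociclib, which had the largest residual SD (0.232) and enter no comparison here. Across the 12607 genes, which are not independent replicates, the log2 changes of E545K had a correlation of 0.58 with those of wild type and of 0.44 with those of H1047R.

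For interferon genes, the response in E545K was larger than in wild type for 37 of 42 and smaller for 2, and larger than in H1047R for 38 and smaller for none. In wild-type cells 22 rose and 8 fell (15 and 17 after median-centring), with a median of 0.00 relative to all genes. In H1047R cells 7 rose and 1 fell, with a median of 0.10. IFI44L fell in wild-type cells from 7.31 and 7.79 to 1.15 and 1.23 FPKM, the opposite direction to E545K, and was at 1.36 and 1.09, then 1.58 and 1.64, in H1047R cells. IFI27 likewise fell in wild type, from 178 and 191 to 41.6 and 37.9. MX1 was at 20.7 and 20.2, then 29.4 and 29.1, in wild type and at 39.9 and 38.5, then 46.9 and 46.5, in H1047R, against more than 200 FPKM in E545K cells in the medium. Antigen presentation genes responded more in E545K than in wild type in 18 of 26 and more than in H1047R in 14, with 0 and 1 responding less. They also rose in H1047R cells, in 13 of 26 with none lower, against 8.65% of all genes higher. In wild type 10 rose and 12 fell (7 and 16 after median-centring).

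**Figure D2:**
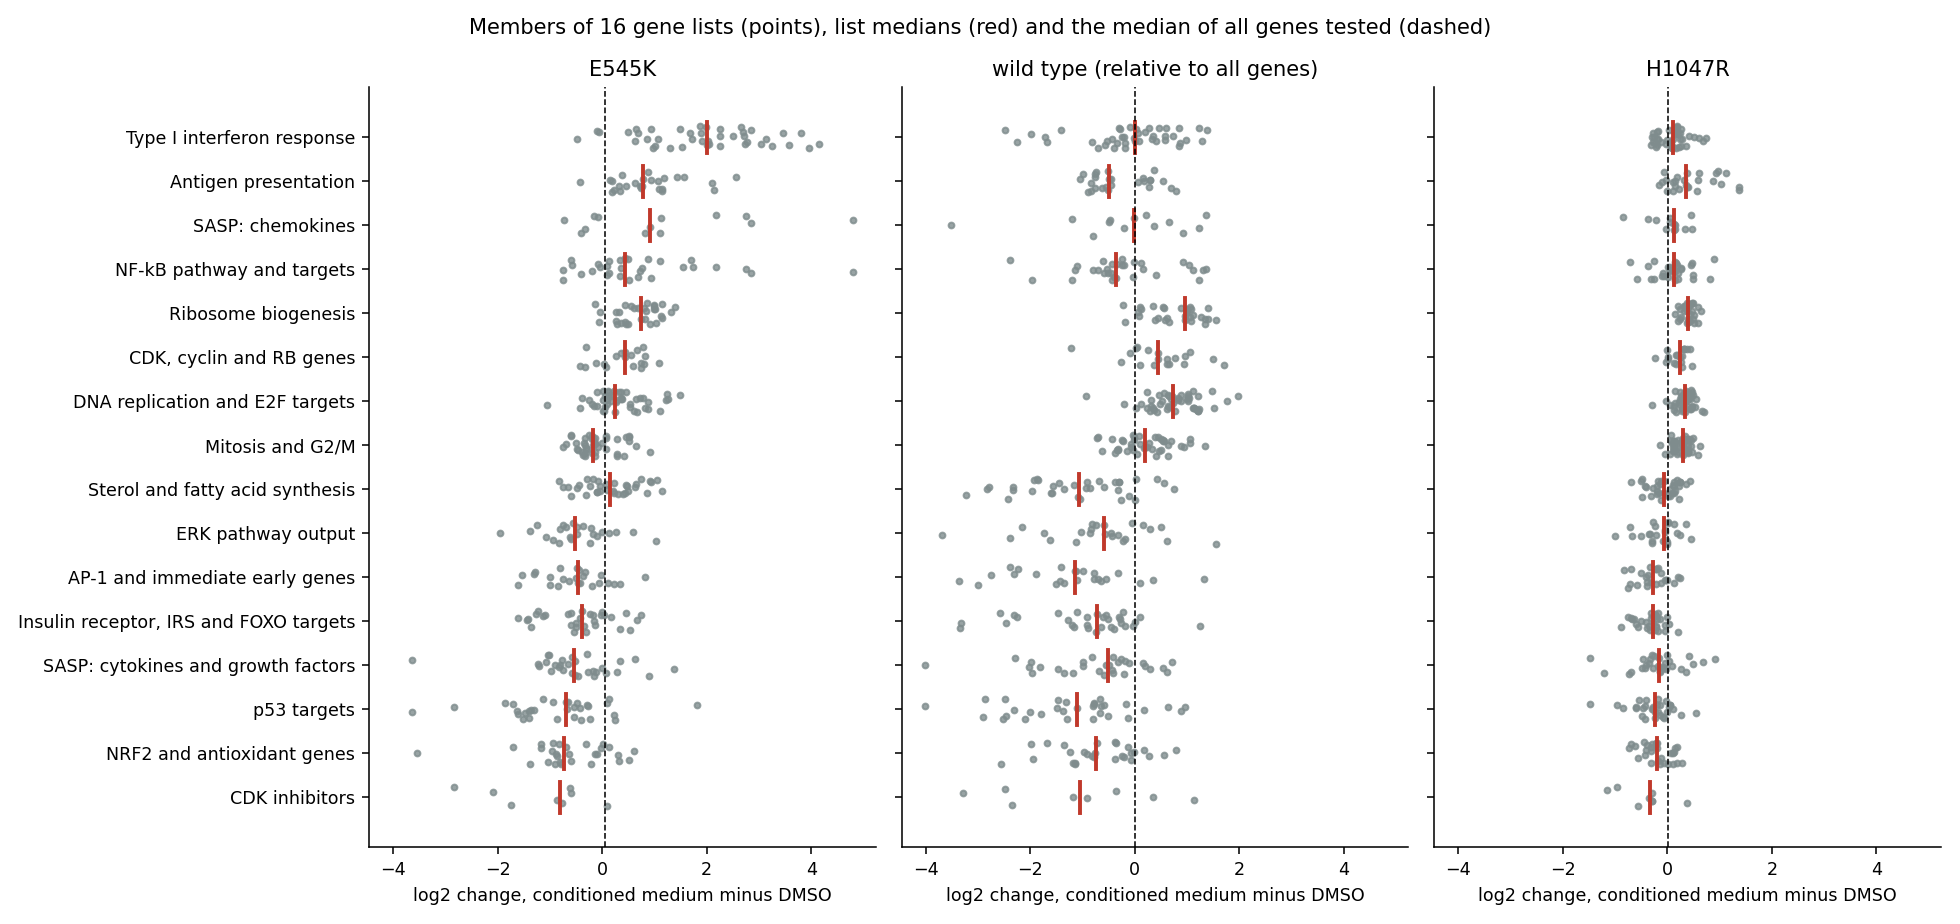
Log2 change (conditioned medium minus DMSO, limma on log2(FPKM + 1)) of each member of 16 gene lists in E545K, wild-type (relative to the median of all genes) and H1047R cells, with list medians in red and the median of all genes tested dashed; vertical scatter is for visibility. The interferon median is 2.00 in E545K and near the dashed line in the other lines, while ribosome assembly genes lie to the right of it in all 3.

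Some groups responded in all 3 lines, from different starting levels. Ribosome assembly genes rose in 29 of 31 in wild type and 23 of 31 in H1047R, with none lower. MYC went from 23.0 and 23.2 to 88.3 and 82.3 FPKM in wild type and from 65.5 and 57.8 to 82.1 and 87.1 in H1047R, so the 6 libraries in conditioned medium lay between 80.5 and 88.3 while those in DMSO did not overlap between lines. GDF15 went from 891 and 929 to 58.9 and 77.6 FPKM in wild type and from 64.3 and 67.8 to 20.3 and 26.2 in H1047R. Its log2 response in E545K was larger in size than in H1047R by 2.15 (SE 0.19, adjusted p = 1.3e-06), while against wild type the difference did not pass (0.33 relative to all genes, adjusted p = 0.69). CDKN1A was at 237 and 247 FPKM, then 45.5 and 60.0, in wild type and at 61.3 and 57.8, then 29.6 and 30.4, in H1047R. p53 targets fell in 24 of 31 in wild type and 11 of 31 in H1047R. Immediate early genes fell in 20 of 24 and rose in 3 in wild type, and fell in 12 and rose in 0 in H1047R. In the same order, ERK output genes had 13 and 5 of 24, then 9 and 3. Insulin and FOXO genes had 19 and 4 of 31, then 13 and 1. Antioxidant genes had 15 and 5 of 28, then 6 and 1, and CDK inhibitors 5 and 2 of 8, then 3 and 1. Over all genes 18.6% were lower in wild type and 5.97% in H1047R.

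For mitosis and replication genes, the E545K response was smaller than that of wild type in 32 of 42 mitosis genes and 35 of 47 replication genes, with none larger in either, against 37.1% of all genes. After median-centring these were 22 and 31, against 20.7% of all genes. Compared with H1047R, 22 mitosis genes were smaller and 1 larger, and 8 replication genes were smaller and 8 larger (13 and 6 after median-centring). In wild type 29 mitosis genes rose and 3 fell (19 and 11 after median-centring), and in H1047R 19 rose and none fell. CDK1 was at 79.2 and 76.5 FPKM, then 92.2 and 89.8, in wild type and at 71.3 and 77.2, then 87.5 and 77.7, in H1047R, against the fall in E545K (difference from H1047R -0.74, SE 0.11, adjusted p = 0.0002).

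Vimentin separated E545K from both lines, with 79.2 and 83.9 FPKM in DMSO and 96.0 and 99.4 in conditioned medium in wild type, and 54.5 and 46.4, then 55.2 and 57.1, in H1047R. No other library shown came near the 5.19 and 5.66 of E545K in the medium. CCL20 was at 4.07 and 3.28, then 6.35 and 2.32, in wild type and at 14.1 and 14.3, then 17.5 and 14.3, in H1047R, so the E545K libraries were the lowest in DMSO and the highest in conditioned medium. PIGR showed the same order in the medium, with 2.14 and 1.91 in wild type and 6.93 and 7.2 in H1047R. ID2, an inhibitor of differentiation factors, rose in E545K from 12.7 and 10.8 to 54.4 and 58.5 FPKM but was at 56.4 and 47.6, then 26.7 and 24.7, in H1047R. The plot of values by library shows these genes side by side.

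E545K cells in palbociclib share the DMSO libraries with the conditioned-medium comparison, so both responses are set side by side and the difference was tested directly between the treated groups. Against DMSO, palbociclib raised 4145 genes (32.9%) and lowered 2434 (19.3%), together 52.2%. Between the treated groups 899 genes (7.13%) were higher in conditioned medium and 1641 (13%) lower. Leaving out any 1 of the 4 libraries gave 473 to 557 higher and 912 to 1130 lower. Interferon genes were higher in conditioned medium in 24 of 42 and lower in 7, with medians against DMSO of 2.00 in medium and 1.54 in palbociclib. IFI44L was at 22.1 and 23.1 FPKM in palbociclib and IFI6 at 240.2 and 249, below their levels in conditioned medium (differences 1.01 and 1.09, adjusted p = 6.64e-06 and 1.1e-05). Of the chemokines none was higher in conditioned medium and 4 were lower. CCL20 was at 35.6 and 31.4 in palbociclib, a difference of 0.43 (SE 0.25, adjusted p = 0.27), and GDF15 at 40.6 and 42.3 (-0.22, adjusted p = 0.28).

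The treatments differed in lipid synthesis genes. Of 34 sterol and fatty acid genes, 31 were higher in conditioned medium and 1 lower, with medians against DMSO of 0.15 in medium and -0.58 in palbociclib. INSIG1 was at 19.7 and 16.2 FPKM in palbociclib against 124 and 127 in medium (2.74, adjusted p = 1.3e-11), and SCD at 39.9 and 37.4 against 201 and 209 (2.38, adjusted p = 1.3e-11). FGFBP1, which releases fibroblast growth factors from matrix, was at 6.19 and 7.17 in palbociclib against 64.9 and 67.1 (3.13, adjusted p = 1.3e-11). Mitosis genes were higher in medium in 18 of 42 and lower in none (6 to 9 higher without 1 library), with medians against DMSO of -0.18 and -0.36. Vimentin was at 46.9 and 46.0 in palbociclib (-2.89, adjusted p = 1.3e-11), and LRRN4, a leucine-rich repeat neuronal protein, at 38.8 and 40.5 against 3.28 and 3.52 (-3.21). DKK1, a secreted Wnt inhibitor, was at 180 and 167 against 39.7 and 39.2 (-2.11), and IGFBP6 at 39.2 and 47.8 against 8.05 and 8.59 (-2.25). FXYD2 was listed at 0 in both conditioned-medium libraries, at 2.48 and 2.02 in DMSO and at 7.01 and 7.33 in palbociclib. CXorf49B, which has a near-identical copy, was at 8.67 and 9.55 in palbociclib against 0.88 and 1.15.

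**Figure D3:**
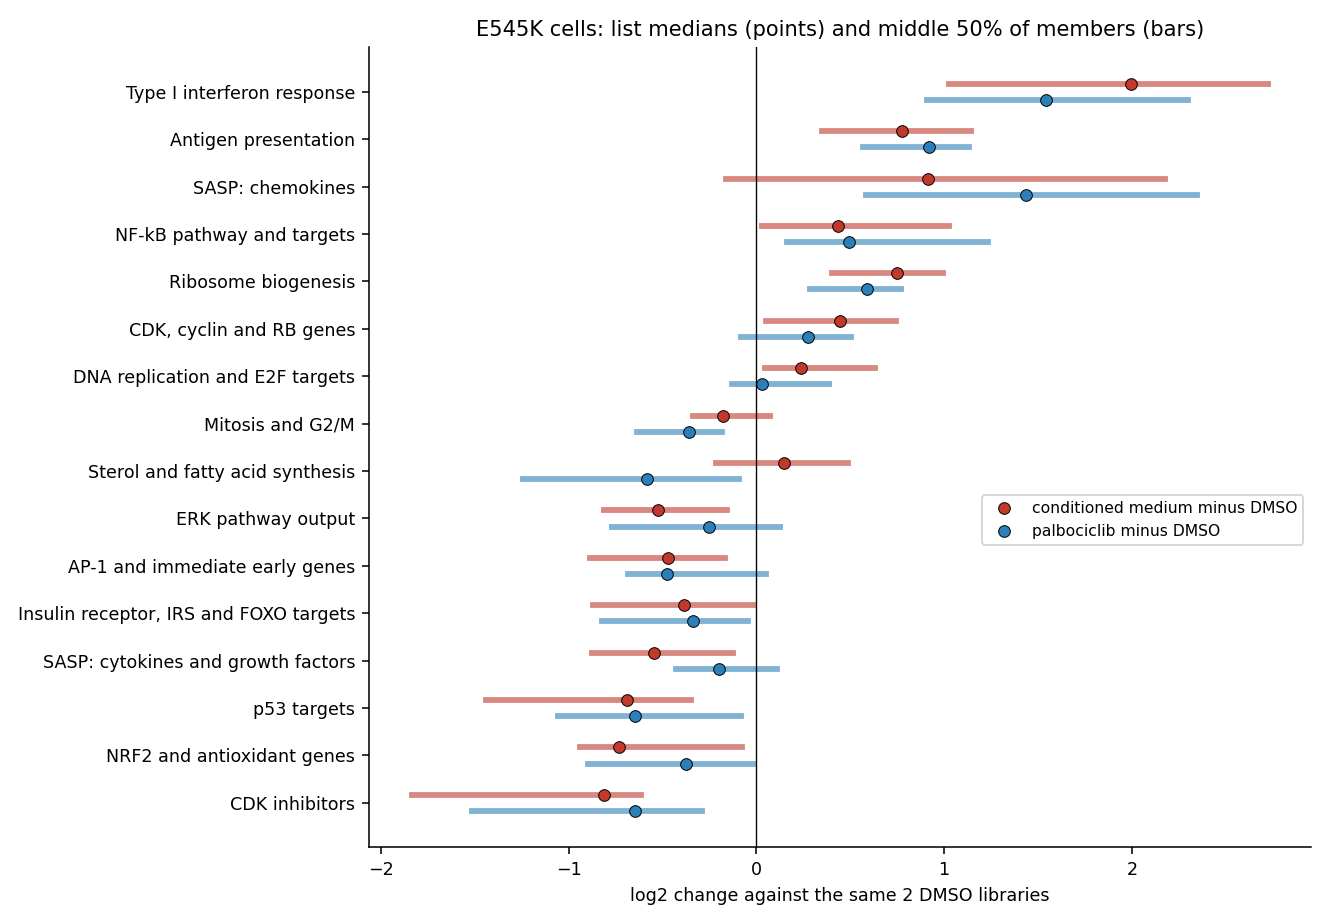
Median log2 change (points) and the middle 50% of members (bars) of 16 gene lists in E545K cells for conditioned medium and for palbociclib, each against the same 2 DMSO libraries, so the pairs are not independent. The interferon medians are 2.00 for medium and 1.54 for palbociclib, and those of sterol and fatty acid synthesis 0.15 and -0.58.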

How the data were processed

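Poly(A) RNA was sequenced and the authors deposited 1 table of FPKM values, with 2 decimals, for 18 libraries in 9 groups of 2, per the file headers. HISAT2 2.1.0, Bowtie2 2.3.4.3, RSEM 1.3.1, DESeq2 1.4.5 and the build GRCh38 (hg38) are named without their roles, per the submitters' processing notes. A second deposited table of 8 libraries was not used here. FPKM is scaled to length and library total, so genes of very high level lower the others, and depth is unknown: low values were within 0.15 of a whole multiple of 1 read in only 57.9% of cases, so counts were not recovered.

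Libraries were assigned by the column names. Genes with at least 1 FPKM in at least 2 of 18 libraries (12607 of 18165) were fitted as log2(FPKM + 1) with limma 3.58.1 (R 4.3.3), 1 mean per group, all 9 groups sharing the estimate of spread (9 residual and 5.58 prior degrees of freedom) and an intensity trend. Contrasts were conditioned medium minus DMSO in E545K, its difference from the same contrast in wild type and in H1047R, and conditioned medium minus palbociclib. Adjusted p is Benjamini-Hochberg over all genes tested, with a threshold of 0.05. The procedure was tested on simulated data. Named genes are the 12 largest rises and 12 largest falls among genes called, with groups that do not overlap and a mean of at least 5 FPKM in the higher group; up to 6 called members of a list in each direction; members with a defining role in a list; the 8 largest differences in each direction shared against both other lines; the 6 largest in each direction against palbociclib; and PIK3CA. REG4, SAMD9L and a few other list members were named after their values were seen. The comparison and the gene lists were chosen with earlier results of these data known. Promoters came from RefSeq (GRCh38.p14). Alternatives were the pseudocount, the filter, the normalization, the trend, the groups fitted, a replicate block and leaving out each library. Deviations of libraries with the same replicate number had a correlation of 0.04 between E545K groups, 0.02 in wild type and -0.36 in H1047R. None was clearly positive, and the number was not used as pairing. Figures used matplotlib 3.10.9. Some genes that meet the naming rule are not reported here.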

Additional observations from a re-analysis of the deposited data

Results flagged for a closer look

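The response to conditioned medium differed between E545K and the other lines in 5937 genes against wild type and 4273 against H1047R, by limma's test of the difference. The genes below were picked by the size of these differences, so their values are a description. All differences are in log2, E545K minus the other line, with the wild-type value relative to the median of all genes.

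Among immune genes, CCL20 differed by 4.65 from H1047R and 4.94 from wild type, IFI44L by 3.91 and 6.34, IFI6 by 3.22 and 5.58, and OAS2 by 3.52 and 3.72. MX1 differed by 3.21 and 3.19 and RSAD2 by 3.05 and 2.98. RNA of IFI44L and IFI6 fell in wild-type cells, IFI6 from 54.2 and 52.3 to 18.0 and 21.5 FPKM. PIGR differed by 3.78 and 3.40, and ID2 by 3.16 and 2.73.

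In the other direction VIM differed by -3.32 from H1047R and -3.19 from wild type, and LRRN4 by -3.02 and -2.88. FXYD6, a regulator of the sodium pump, differed by -2.03 and -2.19, REEP2, an endoplasmic reticulum shaping protein, by -2.03 and -2.66, and DHRS2, a dehydrogenase, by -1.95 and -2.28. JPH2, a junctophilin, differed by -1.78 and -2.81. ALDH1A3, which makes retinoic acid, differed by -1.74 and -2.23: it fell in E545K from 170.1 and 164 to 73.1 and 68.4 FPKM, while wild type went from 63.5 and 62.0 to 146 and 150.1. AKR1C3 differed by -2.86 and -1.92, and its H1047R DMSO libraries were 18.8 and 36.0 FPKM, a wider gap than in the other groups. PIK3CA differed by 1.03 and 1.01.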

How the results depend on the processing

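The count of genes called in E545K (7223) ranged from 5976 to 8303 over 9 other settings and from 5832 to 6202 without 1 library. Leaving out a library in the comparison with palbociclib gave 1400 to 1687 genes called, 473 to 557 higher and 912 to 1130 lower. Fitting only the groups compared gave 4033 called and 1625 higher. For the difference from wild type, median-centring gave 2354 higher and 2610 lower and quantile normalization 2450 and 2852, as both remove the shift of 0.23 between the responses' medians. In E545K the share of calls higher was 42.9% with median-centring, 49.2% with quantile normalization and 62% on a TPM scale. MKI67, not called, turned to -0.052 with median-centring and ranged from -0.10 to 0.23 without 1 library. Among single genes 121 values without a library and 61 under other settings lost their call. A replicate block gave 7258 genes called in E545K, 6005 and 4329 for the differences from wild type and H1047R, and 2606 against palbociclib; deviations of same-numbered libraries correlated by 0.04 (E545K medium with DMSO), 0.02 (wild type), -0.36 (H1047R) and -0.06 (medium with palbociclib). The majority direction turned with median-centring for hypoxia (8 higher and 10 lower of 33), JAK-STAT3 (4 and 5), Wnt (5 and 8) and senescence chromatin genes (1 and 4). Wnt genes also turned with quantile normalization (5 and 7) and a replicate block (6 and 7). TGF-beta genes turned with the filter at 5 FPKM (8 and 6) and on the TPM scale (9 and 8). Keratins turned with that filter (3 and 2). Oxidative phosphorylation genes turned on the TPM scale (12 and 8) and without DMSO replicate 2. Senescence chromatin genes also turned without DMSO replicate 1 or conditioned-medium replicate 1. Unknown depth and 2 libraries per group limit genes near 1 FPKM most, and the cause of these moves was not tested.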

Other observations

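Counts against DMSO are again to be read against 32.4% higher and 24.9% lower over all genes. Immune ligands on the tumour cells were split, with 5 of 17 higher and 8 lower. LGALS9, a galectin that binds T cells, rose by 1.29, CD47, which blocks uptake by macrophages, by 0.87, and the death ligand TNFSF10 by 0.84. TNFSF9, a ligand that stimulates T cells, fell from 82.0 and 82.0 FPKM to 20.9 and 21.1 (-1.92), and MICA, a ligand of natural killer cells, fell by 1.10. Of 32 lysosome and autophagy genes, 13 fell and 7 rose, and 18 were lower in conditioned medium than in palbociclib (10 to 13 without 1 library) with 1 higher. Among cell death genes 7 of 27 rose, such as CASP8 (1.16) and BCL2 (0.86), and 11 fell, such as BBC3, BMF, BCL2L1 and BAX. Amino acid supply genes under ATF4 rose in 12 of 30 and fell in 6. Their response exceeded that of wild type in 22 (10% of all genes) and of H1047R in 17 (18.8% of all genes). In wild type 4 of these genes rose and 20 fell, and in H1047R 2 rose and 9 fell.

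Gene families grouped by symbol after their values were seen gave further counts, to be read against 32.4% higher and 24.9% lower over all genes. Beta tubulins, subunits of microtubules with close copies, fell in 8 of 9, and TUBB4A went from 8.91 and 8.71 to 1.24 and 1.2 FPKM. Cytosolic ribosomal protein genes fell in 58 of 80 and rose in 3, with 35 lower and 12 higher after quantile normalization, and 18 lower without DMSO replicate 2, 34 without conditioned-medium replicate 1 and 32 without conditioned-medium replicate 2. Members of the PARP family, several of which are interferon-induced, rose in 9 of 13, and APOL genes in 4 of 5. Cytosolic aminoacyl tRNA synthetases, which charge tRNAs, rose in 12 of 17 and fell in 2. Collagens fell in 7 of 12.

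A few genes, picked after their values were seen, were at 0.1 FPKM or less in both libraries of 1 group and at 1 or more in both of the other. THSD7A (0.10 and 0.10, then 1.54 and 1.67 FPKM), RERG (0.00 and 0.05, then 2.15 and 1.71) and KLHDC7B (0.00 and 0.04, then 1.66 and 1.74) were low in DMSO. CYP24A1, which breaks down vitamin D (2.43 and 2.60, then 0.10 and 0.10), AKR1B1 (2.29 and 1.99, then 0.08 and 0.04) and PTPRS (1.25 and 1.07, then 0.05 and 0.07) were low in conditioned medium. Values this low have an unknown number of fragments behind them.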
